A study of Mus musculus with 10 samples.

Results

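Enzymes that break down amino acids were compared between livers of mice with T cell-low and T cell-high pancreatic tumours. The set holds 40 genes, chosen by symbol from a list of amino acid catabolism enzymes, of 24972 genes in the deposited table, and all 40 are in it. They were divided by route into 6 genes for the aromatic amino acids, 15 for the branched-chain amino acids, 5 for glycine, 3 for histidine and 11 others, which act on alanine, glutamate, serine, proline, lysine and cysteine. A mean of 10 scaled counts or more was required for testing, and 39 members reached it. The remaining member, Dao, which encodes D-amino acid oxidase, is listed at 0 in every library.

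The liver is the main organ of amino acid breakdown. Nitrogen is removed by transaminases and dehydrogenases and passed to the urea cycle, and the carbon skeletons enter glucose, ketone body or energy metabolism. Branched-chain amino acids are transaminated mostly in other tissues. Their keto acids are oxidised by the branched-chain keto acid dehydrogenase complex and then by separate mitochondrial pathways for leucine, isoleucine and valine, the latter pair ending in propionyl-CoA and succinyl-CoA.

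All 10 libraries were made from whole liver of mice whose genotype is given as WT and which carried a KPC-derived pancreatic ductal adenocarcinoma line. Line 6419c1 was used for the 4 T cell-low libraries and line 6555c3 for the 6 T cell-high libraries, so that a single line stands for each class and line and class cannot be told apart. The sources used here give no sex, age, tumour site or time of sampling, and no tumour-free liver was analysed here. Nothing states that each library is a separate mouse, so the p-values reflect only how far these libraries vary, possibly for technical reasons. RNA was counted from transcript 3′ ends. A value below is a scaled count, that is, a gene count brought to a common depth by the authors, and a log2 fold change is T cell-low minus T cell-high on the log2(scaled count + 1) scale with its standard error (SE). Because bulk liver was measured, fewer hepatocytes and less RNA per hepatocyte cannot be told apart.

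Scaled totals ran from 7000659 to 8257373 per library, and reads behind a value are unknown. Hepatocyte markers (14 of 15 in the table, none of them at 0 in all libraries) summed to 548749 to 747543 scaled counts in T cell-low against 378813 to 678109 in T cell-high libraries, and 2 of 14 passed the test, both higher in T cell-low. Pericentral hepatocyte genes (10 of 10 tested, 2 lower, Cyp1a2 and Rhbg) summed to 15904 to 24661 against 30909 to 45059, with no overlap of the sums. Taken singly, 9 of these 10 genes overlapped between the groups. The fold change was below 0 for 8 of them and above 0 for 2, Slc1a2 and Axin2. Periportal genes (10 of 10 tested, 1 higher and 1 lower) summed to 48416 to 96241 against 47652 to 72328. Neutrophil genes (7 of 15 tested, 6 higher) summed to 1412 to 3237 against 135 to 1050. Erythroid genes (6 of 7 tested, 2 higher, Hba-a2 and Slc4a1) summed to 43163 to 98228 against 19681 to 51936. Liver endothelial genes (9 of 9 tested, 2 higher, Stab2 and Lyve1) summed to 2435 to 2862 against 2216 to 3137. Of the stellate list 1 of 10 tested (Rgs5) and of the tumour epithelium list 1 of 4 (Msln) were higher, and 0 of the tested macrophage, T and NK cell, B cell and cholangiocyte genes passed. Genes with a fold change below 0 and above 0 numbered 8 and 6 for hepatocyte and 4 and 6 for periportal genes. They numbered 5 and 4 for liver endothelial, 6 and 4 for stellate and 2 and 2 for tumour epithelium genes. For neutrophil genes it was 1 and 6, and for erythroid genes 1 (Hbb-bs) and 5. The shares that passed were 14.3% for hepatocyte, 20% for periportal and for pericentral, 85.7% for neutrophil and 33.3% for erythroid genes. They were 22.2% for liver endothelial, 10% for stellate and 25% for tumour epithelium genes, against 12.8% of all tested genes. Ngp, Retnlg and Slc4a1 reached the mean of 10 only through the T cell-low libraries. Their means were 38.6, 42.1 and 88.4 in T cell-low against 1.45, 8.23 and 9.89 in T cell-high libraries. The neutrophil and erythroid shares were thus partly fixed by the filter. The part of any differences in these marker lists in the results below was not tested. T cell-high 1, 3, 5 and 6 stood apart from the other 6 libraries, with H2-L listed at 0 (307 to 1477 in the others) and Hbb-bs at 3465 to 9359 scaled counts (16.2 to 215 in the others). The count of members called is therefore also given without them, as is the fold change of each member that passed.

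Amino acid catabolism genes that differed between the groups were mostly lower in T cell-low livers. Of 39 tested members, 11 fell, 1 rose and 27 did not pass (adjusted p below 0.05, limma, Benjamini-Hochberg over 11110 genes). Over all genes tested 12.8% passed, 7.39% in the lower and 5.39% in the higher direction, against 28.2% of the members in the lower direction. The median log2 fold change was -0.44 over the members and 0.003 over all genes tested. The 11 that fell encode enzymes of all 5 divisions, namely Hgd and Pcbd1 (aromatic), Hibadh, Pcca, Pccb and Mut (branched-chain), Amt and Agxt (glycine), Uroc1 and Amdhd1 (histidine) and Gcdh (lysine). In the division of others only 1 of 11 members fell (9.09%, against 7.39% of all tested genes), and its median was 0.08. The member that rose was Sdsl, which encodes a serine dehydratase-like enzyme. In 6 of the 12 the groups did not overlap (Hibadh, Mut, Agxt, Uroc1, Gcdh and Sdsl), 5 of them lower and 1 higher in T cell-low. The other 6 overlapped, as did 808 of all 1420 genes called. Among the 39 tested members the groups overlapped in 33. Over all tested genes 7.39% did not overlap, 4.02% in the lower direction.

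**Figure D1:**
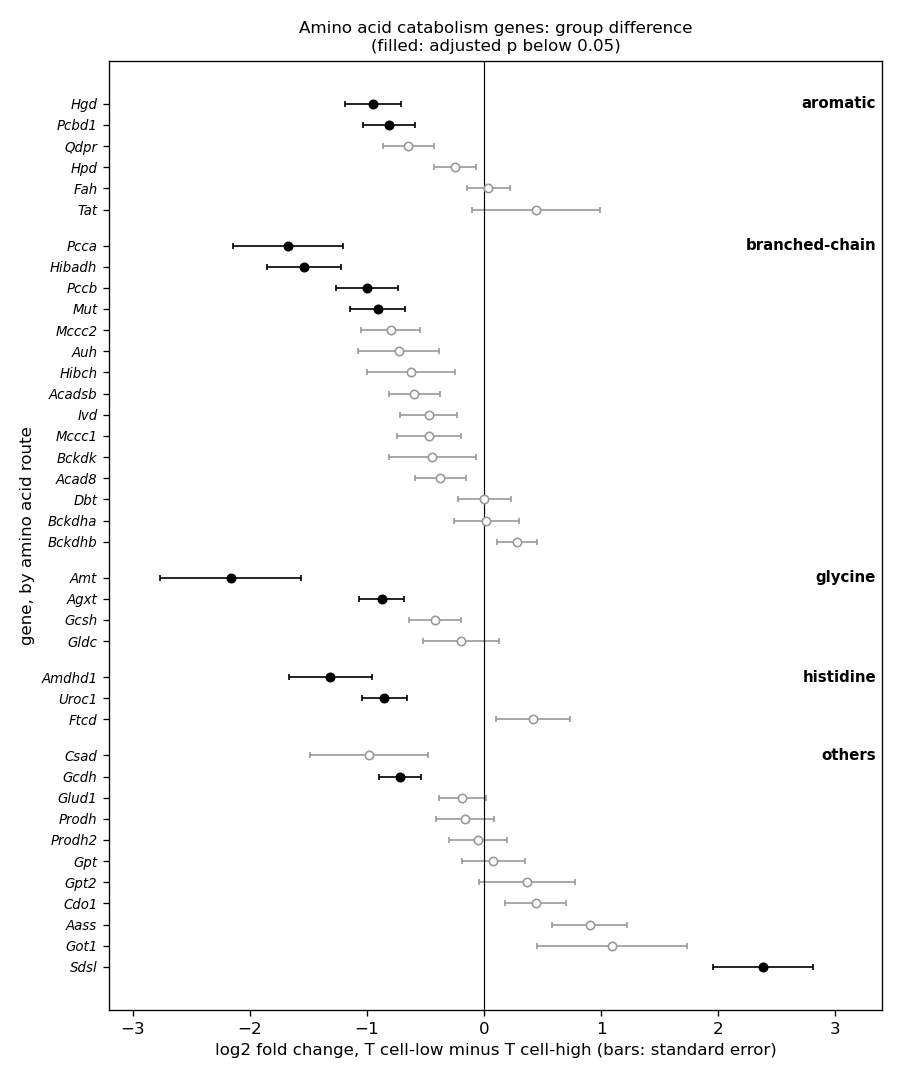
Log2 fold change (x axis, T cell-low minus T cell-high) of the 39 tested members with its standard error as bars, in blocks by amino acid route on the y axis. Filled points passed the test. 11 filled points lie below 0, from Amt at -2.16 to Gcdh at -0.72, and 1 lies above, Sdsl at 2.38.

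These counts depended on which libraries entered. Without T cell-high 1, 3, 5 and 6, which leaves 4 libraries against 2, limma called 0 members and 0 of 11057 genes (1027 genes and 5 members, Qdpr, Hibadh, Agxt, Uroc1 and Sdsl, at an unadjusted p below 0.05), so the counts by route, by compartment and of further pathway genes given below are 0 there as well. The 12 members kept their sign there, which for the 6 without overlap could not change. Without T cell-high 2 and 4, 13 fell and 1 rose, among them the 11 that fell in all libraries. When 1 library was left out, limma called 0 members lower in the absence of T cell-low 2 and 0 in the absence of T cell-low 4 (16 and 15 members in either direction at an unadjusted p below 0.05). Leaving out T cell-low 3, T cell-high 3, T cell-high 5 or T cell-high 6 left the same 3, Hibadh, Agxt and Uroc1, and leaving out T cell-high 1 left 2, Hibadh and Agxt. Omitting T cell-low 1 gave 16 lower and 4 higher, omitting T cell-high 2 gave 11 lower and omitting T cell-high 4 gave 12 lower. Sdsl passed in each of these 10 comparisons. The share of all tested genes that passed moved in the same fits, to 0.982% when T cell-low 2 and 1.41% when T cell-low 4 was omitted. It was 3.42% to 4.58% on omitting T cell-low 3 or T cell-high 1, 3, 5 or 6, and 32.7% for T cell-low 1, 20.5% for T cell-high 2 and 9.85% for T cell-high 4. With no filter on low values Pcca (adjusted p = 0.0538, limma) and Amt (adjusted p = 0.05004, just above the threshold) did not pass, which leaves 9 that fell.

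The aromatic route degrades phenylalanine and tyrosine. 2 of its 6 members fell (33.3%, against 7.39% of all tested genes), 0 rose and 4 did not pass, with a median of -0.44. Hgd, which encodes homogentisate dioxygenase, the enzyme that opens the ring of homogentisate (chromosome 16, 37580153 to 37632020), had 2401, 1285, 1261 and 1254 scaled counts in T cell-low 1, 2, 3 and 4 and from 2107 to 4101 (median 2944) in the T cell-high libraries. T cell-low 1 alone reached into the T cell-high range, and the other 3 T cell-low libraries lay close together below it. The log2 fold change was -0.95 (SE 0.24, adjusted p = 0.0292, limma). It was -0.59 (SE 0.34, adjusted p = 0.584, limma) without T cell-high 1, 3, 5 and 6, all of which lay above T cell-high 2 and 4.

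Pcbd1 encodes the dehydratase that recycles the cofactor tetrahydrobiopterin and also binds HNF1 transcription factors (chromosome 10, 61089331 to 61094324). Its scaled counts were 2168, 1288, 1540 and 884 in T cell-low 1, 2, 3 and 4 and 2138 to 2659 (median 2511) in T cell-high libraries. Again T cell-low 1 alone overlapped with the T cell-high range (log2 fold change -0.81, SE 0.22, adjusted p = 0.0376, limma; -0.77, SE 0.37, adjusted p = 0.551 without T cell-high 1, 3, 5 and 6). Qdpr, the reductase of the same cofactor cycle, had 4783 ± 1101 (SD, n = 4) against 7475 ± 1718 (SD, n = 6) scaled counts and did not pass (-0.64, SE 0.21, adjusted p = 0.0613, limma).

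The other members of the route did not pass. Tat, tyrosine aminotransferase and the first step of tyrosine breakdown, had 245, 1804, 427 and 1300 scaled counts in T cell-low 1, 2, 3 and 4 and 225 to 867 in T cell-high libraries (adjusted p = 0.581, limma). T cell-low 2 and 4 were above all other libraries and T cell-low 1 was near the bottom. Hpd, the dioxygenase that makes homogentisate, had 9306 ± 1765 against 10917 ± 1109 scaled counts (adjusted p = 0.351, limma). Fah, fumarylacetoacetate hydrolase and the last step, had 4914 ± 751 against 4789 ± 739 (adjusted p = 0.899, limma). The promoter window of Hgd is shown because it had the lowest adjusted p of its route (RefSeq, GRCm38.p6, chr16:37579903-37580202, plus strand, 250 bases before to 50 bases after the start). Capitals mark matches to the C/EBP motif TTGCNNAA on either strand.
Hgd: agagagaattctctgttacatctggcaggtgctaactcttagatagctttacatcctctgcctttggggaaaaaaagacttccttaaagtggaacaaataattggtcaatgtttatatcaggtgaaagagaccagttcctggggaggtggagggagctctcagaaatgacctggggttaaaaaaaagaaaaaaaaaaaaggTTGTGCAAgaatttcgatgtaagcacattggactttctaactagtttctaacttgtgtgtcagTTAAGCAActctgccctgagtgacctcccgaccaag

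The branched-chain members that fell take part in valine breakdown and in the propionate steps it shares with isoleucine. Of 15 members 4 fell (26.7%, against 7.39% of all tested genes), 0 rose and 11 did not pass, with a median of -0.59. Hibadh, 3-hydroxyisobutyrate dehydrogenase of valine breakdown (chromosome 6, 52546228 to 52640389), had 426, 206, 333 and 141 scaled counts in T cell-low 1, 2, 3 and 4 and 547 to 1067 (median 738) in T cell-high libraries. The groups did not overlap, and T cell-high 2 and 4 were the lowest of their group (log2 fold change -1.54, SE 0.31, adjusted p = 0.0169, limma; -1.13, SE 0.44, adjusted p = 0.527 without T cell-high 1, 3, 5 and 6). Its promoter window is shown as that of the branched-chain member with the lowest adjusted p (RefSeq, GRCm38.p6, chr6:52640251-52640550, minus strand). It holds 28 CpG dinucleotides and no match to any of the 6 motifs searched, so that no capitals are used.
Hibadh: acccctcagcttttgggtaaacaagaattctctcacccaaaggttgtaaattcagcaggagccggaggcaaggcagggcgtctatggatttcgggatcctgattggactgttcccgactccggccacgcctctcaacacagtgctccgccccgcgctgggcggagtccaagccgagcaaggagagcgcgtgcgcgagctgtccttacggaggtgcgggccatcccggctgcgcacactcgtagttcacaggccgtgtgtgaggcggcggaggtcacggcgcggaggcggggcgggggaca

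Propionyl-CoA, the shared end product of valine and isoleucine, is carboxylated by an enzyme of the subunits Pcca and Pccb and then converted to succinyl-CoA by methylmalonyl-CoA mutase, encoded by Mut. Pcca, the biotin-bearing alpha subunit (chromosome 14, 122534324 to 122891100), had 25.3, 32.3, 31.3 and 21.8 scaled counts in T cell-low 1, 2, 3 and 4 and 27.1 to 204 (median 115) in T cell-high libraries. T cell-high 2 (27.1) lay within the T cell-low range and T cell-high 4 (52.8) just above it, while T cell-high 1, 3, 5 and 6 had 94.8 to 204. The log2 fold change was -1.68 (SE 0.47, adjusted p = 0.0391, limma) and was -0.45 (SE 0.48, adjusted p = 0.736, limma) without those 4 libraries. The 3′ end of Pcca overlaps Ggact on the other strand, which had 580 ± 148 against 780 ± 106 scaled counts (adjusted p = 0.146, limma), and since the strand setting of the counting is not given in the sources used here, reads of the pair cannot be told apart with certainty.

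Pccb, the beta subunit (chromosome 9, 100982032 to 101034898), had 625, 357, 392 and 391 scaled counts in T cell-low 1, 2, 3 and 4 and 485 to 1240 (median 927) in T cell-high libraries. T cell-low 1 lay above T cell-high 2, the only overlap (log2 fold change -0.996, SE 0.27, adjusted p = 0.0337, limma). Without T cell-high 1, 3, 5 and 6 it was -0.45 (SE 0.34, adjusted p = 0.645, limma). Mut (chromosome 17, 40934685 to 40961988) had 521, 400.5, 489 and 344 scaled counts in T cell-low 1, 2, 3 and 4 and 555 to 1112 (median 881) in T cell-high libraries. The groups did not overlap, and T cell-high 4 and 2 (555 and 589) came next to T cell-low 1 (log2 fold change -0.91, SE 0.24, adjusted p = 0.0314, limma; -0.40, SE 0.30, adjusted p = 0.639 without T cell-high 1, 3, 5 and 6).

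The dehydrogenase complex that commits branched-chain keto acids to oxidation did not pass in any of its measured parts. Bckdha, the E1 alpha subunit, had 545 ± 251 (SD, n = 4) against 492 ± 54.9 scaled counts (SD, n = 6; adjusted p = 0.961, limma). Bckdhb, the E1 beta subunit, had 786 ± 149 against 638 ± 26.2 (0.28, SE 0.17, adjusted p = 0.255, limma), and Dbt, the E2 transacylase, had 584 ± 206 against 559 ± 67.5 (adjusted p = 0.994, limma). Bckdk, the kinase that inhibits the complex, had 22.5 ± 9.81 against 30.4 ± 11.4 scaled counts (adjusted p = 0.411, limma). A difference between these genes and the later steps was not tested.

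The other 7 branched-chain members, acyl-CoA dehydrogenases, leucine enzymes and the valine enzyme Hibch, did not pass either, each with a fold change below 0. Hibch, the hydrolase that makes the substrate of Hibadh, had 51.8 ± 22.4 (SD, n = 4) against 76.4 ± 23.0 scaled counts (SD, n = 6; -0.62, SE 0.37, adjusted p = 0.250, limma). Mccc2, a subunit of methylcrotonoyl-CoA carboxylase of leucine breakdown, came closest, with 67.9, 56.9, 46.4 and 46.4 scaled counts in T cell-low 1, 2, 3 and 4 and 59.9 to 134 (median 96.6) in T cell-high libraries (log2 fold change -0.80, SE 0.25, adjusted p = 0.0520, limma). Acadsb, the dehydrogenase of isoleucine, had 457 ± 131 against 668 ± 80.0 (-0.59, SE 0.22, adjusted p = 0.0806, limma). Auh, Ivd, Mccc1 and Acad8 had fold changes from -0.73 (Auh) to -0.37 (Acad8), with adjusted p from 0.154 to 0.240 by limma.

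Glycine enzymes fell in 2 of 4 tested members (50%, against 7.39% of all tested genes), with a median of -0.64. Amt encodes the aminomethyltransferase (T protein) of the glycine cleavage system (chromosome 9, 108296853 to 108302302). It had 132, 9.31, 53.6 and 41.4 scaled counts in T cell-low 1, 2, 3 and 4 and 80.9 to 291 (median 257) in T cell-high libraries. T cell-high 2 and 4 (80.9 and 98.2) lay below T cell-low 1, and the other 4 T cell-high libraries had 246 to 291. The log2 fold change was -2.16 (SE 0.60, adjusted p = 0.0385, limma) and -1.09 (SE 0.83, adjusted p = 0.645, limma) without those 4. The other parts of the same system did not pass, with 127 ± 22.6 against 156 ± 67.5 scaled counts for the decarboxylase gene Gldc (-0.20, adjusted p = 0.692, limma) and 838 ± 297 against 1069 ± 110 for Gcsh, the lipoyl carrier (-0.41, adjusted p = 0.200, limma). For Gldc the value turned to 0.49 without T cell-high 1, 3, 5 and 6.

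Agxt encodes the alanine-glyoxylate aminotransferase that turns glyoxylate into glycine (chromosome 1, 93135240 to 93145421). It had 1006, 913, 876 and 549 scaled counts in T cell-low 1, 2, 3 and 4 and 1379 to 1735 (median 1464) in T cell-high libraries. The groups did not overlap. T cell-high 2 lay among T cell-high 1, 3, 5 and 6 and T cell-high 4 just below them (log2 fold change -0.87, SE 0.19, adjusted p = 0.0197, limma). Without T cell-high 1, 3, 5 and 6 the value was -0.79 (SE 0.32, adjusted p = 0.527, limma). The promoter window of Agxt, that of the glycine member with the lowest adjusted p, is at chr1:93134990-93135289 (RefSeq, GRCm38.p6, plus strand), and capitals mark the glucocorticoid receptor half-site TGTTCT.
Agxt: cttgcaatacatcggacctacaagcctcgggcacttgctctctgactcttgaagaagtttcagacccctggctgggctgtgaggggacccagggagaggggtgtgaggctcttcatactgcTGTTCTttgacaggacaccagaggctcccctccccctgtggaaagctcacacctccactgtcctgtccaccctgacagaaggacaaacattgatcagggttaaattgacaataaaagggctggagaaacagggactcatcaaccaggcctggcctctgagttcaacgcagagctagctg

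Histidine is degraded through urocanate to glutamate by enzymes that act in order. Uroc1, urocanate hydratase (chromosome 6, 90333284 to 90364551), had 1243, 1237, 1699 and 860 scaled counts in T cell-low 1, 2, 3 and 4 and 2038 to 2495 (median 2189) in T cell-high libraries. All 6 T cell-high values lay in a narrow band above all T cell-low values (log2 fold change -0.85, SE 0.19, adjusted p = 0.0208, limma; -0.77, SE 0.32, adjusted p = 0.529 without T cell-high 1, 3, 5 and 6). Amdhd1, the imidazolonepropionase of the next step (chromosome 10, 93523338 to 93540033), had 624, 339, 466 and 144 scaled counts in T cell-low 1, 2, 3 and 4 and 609 to 1156 (median 889) in T cell-high libraries. T cell-low 1 lay just above T cell-high 4, the lowest of its group (log2 fold change -1.31, SE 0.35, adjusted p = 0.0345, limma; -0.88, SE 0.52, adjusted p = 0.585 without T cell-high 1, 3, 5 and 6). Ftcd, the formiminotransferase that ends the route, had 3587, 13122, 7350 and 5651 against 3772 to 7841 (median 4593) and did not pass (0.42, SE 0.32, adjusted p = 0.363, limma). Hal, the first enzyme of the route and no member of the set, had 0.36 (SE 0.29, adjusted p = 0.399, limma). The promoter window of Uroc1, the histidine member with the lowest adjusted p, is at chr6:90333039-90333338 (RefSeq, GRCm38.p6, plus strand) and holds no match to the 6 motifs and 0 CpG dinucleotides.
Uroc1: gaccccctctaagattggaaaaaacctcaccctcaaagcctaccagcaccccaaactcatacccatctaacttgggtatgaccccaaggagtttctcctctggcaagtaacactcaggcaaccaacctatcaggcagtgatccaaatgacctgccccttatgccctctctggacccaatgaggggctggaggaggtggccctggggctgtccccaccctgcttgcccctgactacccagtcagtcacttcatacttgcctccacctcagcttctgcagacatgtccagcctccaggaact

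**Figure D2:**
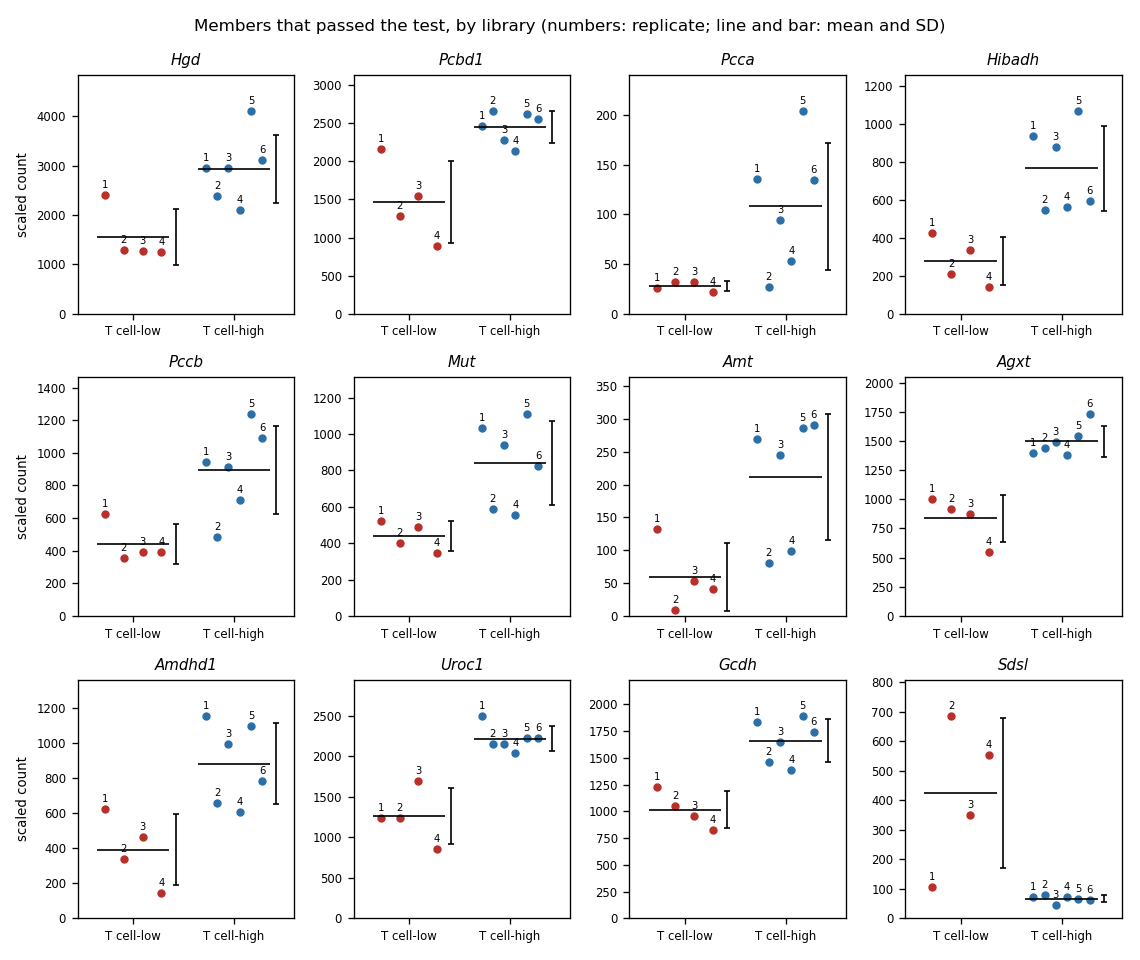
Scaled counts (y axis, from 0) of the 12 members that passed, in each T cell-low (red) and T cell-high (blue) library, numbered by replicate, with the mean as a line and the SD as a bar. For Pcca, Pccb, Mut and Amt, T cell-high 2 and 4 lie below T cell-high 1, 3, 5 and 6, and Sdsl has 105 to 685 in T cell-low against 44.4 to 80.2 in T cell-high libraries.

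Among the 11 members of the other routes 1 rose (Sdsl), 1 fell (Gcdh) and 9 did not pass (18.2% called, against 12.8% of all tested genes). Their median was 0.08, with 6 fold changes above 0 and 5 below. Sdsl (chromosome 5, 120458186 to 120472810), whose product resembles the serine dehydratase that releases pyruvate from serine, had 105, 685, 351 and 554 scaled counts in T cell-low 1, 2, 3 and 4 and 44.4 to 80.2 (median 68.5) in T cell-high libraries. All T cell-low libraries were above all T cell-high libraries, with T cell-low 1 nearest to them, and the mean was 424 ± 253 (SD, n = 4) against 66.3 ± 12.6 (SD, n = 6). The log2 fold change of 2.38 (SE 0.43, adjusted p = 0.0120, limma) had the lowest adjusted p of the members, and was 2.16 (SE 0.66, adjusted p = 0.527, limma) without T cell-high 1, 3, 5 and 6. Sds, which encodes serine dehydratase itself and is no member, had 199 against 186 scaled counts in the mean (adjusted p = 0.956, limma).

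Lysine is degraded by Aass, the bifunctional aminoadipate-semialdehyde synthase at the start, and later by Gcdh, glutaryl-CoA dehydrogenase. Gcdh (chromosome 8, 84886393 to 84893921) had 1229, 1053, 956 and 822 scaled counts in T cell-low 1, 2, 3 and 4 and 1388 to 1891 (median 1691) in T cell-high libraries, without overlap (log2 fold change -0.72, SE 0.18, adjusted p = 0.0265, limma; -0.50, SE 0.28, adjusted p = 0.580 without T cell-high 1, 3, 5 and 6). Its 3′ end overlaps Syce2 on the other strand, a gene with 10.3 and 5.76 scaled counts in the group means. Aass had 1604, 5748, 2330 and 4482 scaled counts in T cell-low 1, 2, 3 and 4 and 1256 to 2220 (median 1635) in T cell-high libraries. T cell-low 1 lay inside the T cell-high range and the other 3 above it, and the gene did not pass (0.90, SE 0.32, adjusted p = 0.0716, limma).

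The transaminases and glutamate dehydrogenase did not pass. Got1, the cytosolic aspartate aminotransferase, had 1356, 12564, 2034 and 18314 scaled counts in T cell-low 1, 2, 3 and 4 and 1359 to 4108 (median 2570) in T cell-high libraries. T cell-low 2 and 4 were far above all others and T cell-low 1 was the lowest of all 10, so the fold change of 1.09 carried an SE of 0.64 (adjusted p = 0.238, limma). Gpt2, the mitochondrial alanine aminotransferase, had 785, 3234, 987 and 3484 against 933 to 1949 (median 1335), with the same pair of libraries on top (adjusted p = 0.538, limma). Its cytosolic counterpart Gpt had 1308 ± 441 against 1231 ± 367 (adjusted p = 0.852, limma), and Glud1, which releases ammonia from glutamate, had 5677 ± 1388 against 6354 ± 912 (adjusted p = 0.538, limma).

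Enzymes of cysteine and proline did not pass. Cdo1, cysteine dioxygenase, had 14461, 34766, 27625 and 31618 scaled counts in T cell-low 1, 2, 3 and 4 and 15217 to 25779 (median 18392) in T cell-high libraries (0.44, SE 0.26, adjusted p = 0.237, limma). Csad, the decarboxylase that follows it on the way to taurine, had 7513, 884, 2322 and 992 against 2915 to 6859 (median 3503). T cell-low 1 had the highest and T cell-low 2 and 4 the lowest values of all 10 libraries (-0.98, SE 0.50, adjusted p = 0.181, limma). Prodh, proline dehydrogenase, had 566 ± 162 against 630 ± 164 scaled counts (adjusted p = 0.665, limma), and Prodh2, which acts on hydroxyproline, had 1904 ± 732 against 1872 ± 285 (adjusted p = 0.906, limma).

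**Figure D3:**
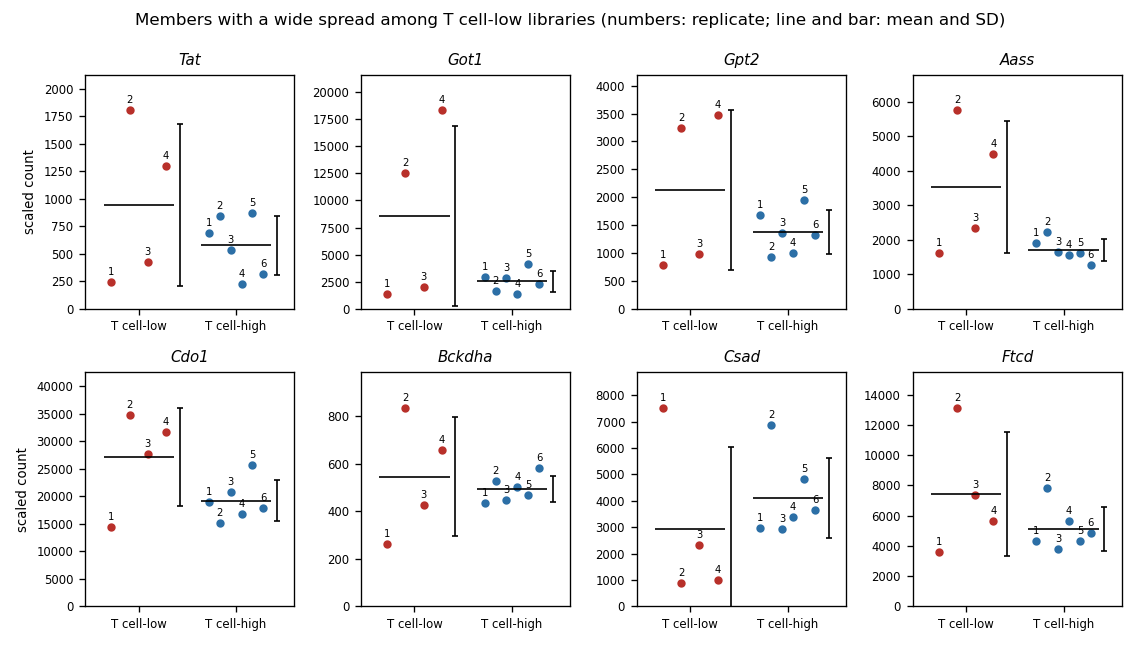
Scaled counts (y axis, from 0) of 8 members that did not pass, picked with their values known, by library as numbered. The mean is a line and the SD a bar (the bar of Csad is clipped at 0). They are not the 8 with the widest spread among T cell-low libraries. Hibch (SD 0.80 on the log2 scale) is left out and Cdo1 (0.57) is shown. T cell-low 2 and 4 are the highest of all libraries for Tat, Got1, Gpt2, Aass, Cdo1 and Bckdha and the lowest for Csad. Of all 39 tested members 17.9% had this pair highest, against 15.9% of all tested genes.

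The T cell-low libraries differed among themselves in a recurring way. T cell-low 2 and 4 were the lowest of all 10 libraries for 13 of 39 members (33.3%, against 14.4% of all tested genes), among them Hibadh, Pccb, Mut, Amt, Pcbd1, Uroc1 and Amdhd1 of those that fell. They were the highest for 7 members (17.9%, against 15.9%), namely Tat, Bckdha, Gpt2, Got1, Sdsl, Aass and Cdo1. T cell-low 1 was the highest T cell-low library for 19 members (48.7%, against 31.3%) and lay nearer to the T cell-high mean than to the mean of T cell-low 2, 3 and 4 for 29 (74.4%, against 70.3%). Within T cell-high, libraries 2 and 4 were both below the other 4 for 15 members (38.5%, against 21.8%), including 9 of the 11 that fell, and both above them for 2, Gcsh and Ftcd (5.13%, against 20.9%). These patterns were chosen after the values were seen and carry no test. Relative to the T cell-high mean of each gene, the median member differed by -0.41, -0.45, -0.27 and -0.89 (log2) in T cell-low 1, 2, 3 and 4, and by -0.21 (T cell-high 4) to 0.20 (T cell-high 5) in the T cell-high libraries.

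**Figure D4:**
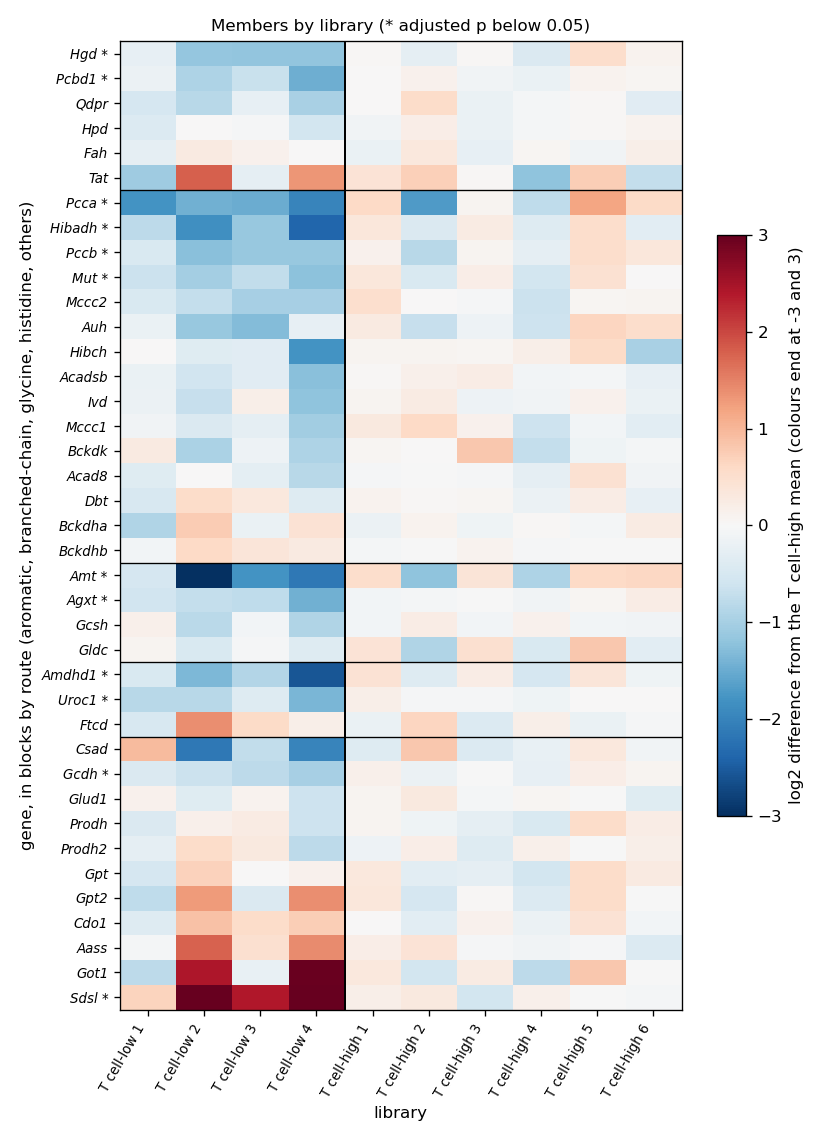
Log2 difference of each tested member (y axis, in blocks by route) from its T cell-high mean in each library (x axis), blue for lower and red for higher, with colours ending at -3 and 3 and an asterisk for an adjusted p below 0.05. T cell-low 2, 3 and 4 are blue in most rows with an asterisk, T cell-low 1 is paler in most of these, and Got1 and Sdsl are deep red in T cell-low 2 and 4.

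By the compartment of the enzyme, 6 of 24 mitochondrial members fell (25%) and 0 rose (median -0.45). Of 14 cytosolic members 4 fell (28.6%) and 1 rose (median -0.10). The share that fell was 7.39% over all tested genes. Agxt was the only tested member placed in the peroxisome. Compartments are textbook locations, 1 per enzyme, and were not measured here. A difference between the compartments was not tested.

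Further enzymes of the same routes that are no members gave counts of a like kind. Of 36 such genes 35 were tested, 9 fell, 0 rose and 26 did not pass (25.7% lower, against 7.39% of all tested genes), with a median of -0.45. In the propionate step Mcee, methylmalonyl-CoA epimerase, fell by 1.62 (SE 0.38, adjusted p = 0.0236, limma) and Mmaa, which protects the cobalamin of the mutase, fell by 1.92 (SE 0.47, adjusted p = 0.0256, limma) on the log2 scale. Abat, 4-aminobutyrate aminotransferase, which also acts on a valine product, fell by 1.04 (SE 0.24, adjusted p = 0.0208, limma). In glycine and serine exchange Gcat, which takes part in threonine breakdown, fell by 1.53 (SE 0.28, adjusted p = 0.0123, limma) and Shmt1, the cytosolic serine hydroxymethyltransferase, fell by 1.25 (SE 0.29, adjusted p = 0.0230, limma).

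Ethe1, a sulfur dioxygenase of the mitochondrion, fell by 0.93 (SE 0.18, adjusted p = 0.0139, limma), and Aldh4a1, the dehydrogenase that completes proline breakdown, fell by 0.85 (SE 0.16, adjusted p = 0.0141, limma). The glutaminase gene Gls2 fell by 1.29 (SE 0.37, adjusted p = 0.0400, limma). The last of the 9, Aldh7a1 of lysine breakdown, had -1.25 (SE 0.36, adjusted p = 0.0419, limma). In 4 of the 9 the groups overlapped, namely Mcee, Mmaa, Gls2 and Aldh7a1. T cell-high 2 lay below T cell-low 1 in each, with 344 against 500, 88.1 against 111, 1109 against 1498 and 394 against 624 scaled counts. Tdh, listed at 0 in every library, was the gene that could not be tested.

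Promoter windows were given for 35 of the 40 members, 40 windows in all, and not for Dbt, Mut, Gpt, Sdsl and Cdo1. The glucocorticoid receptor half-site TGTTCT occurred in 15% of the members' windows and 19.0% of all 32851 windows, the C/EBP motif TTGCNNAA in 17.5% and 10.8%, and the STAT motif TTCNNNGAA in 10% and 8.3%, each on either strand. The motifs CAAAGTCCA (HNF4A), TGACGTCA (cAMP response element) and TGATGNAAT (C/EBP-ATF composite) occurred in 0 of the members' windows and in 0.475%, 1.79% and 0.965% of all. Of the 10 members that fell and have a window, 2 held the half-site (Agxt and Pccb), 2 the C/EBP motif (Hgd and Gcdh) and 2 the STAT motif (Gcdh and Pccb). The 4 windows printed above differ widely in base composition, with 41.0% G and C for Hgd, 54.3% for Agxt, 55.3% for Uroc1 and 64.0% for Hibadh, against a median of 52.7% over all windows.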

How the data were processed

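Mouse liver RNA in 10 libraries was counted from transcript 3′ ends with a QuantSeq FWD kit, per the labels' protocols. The aligner STAR, the package DESeq2 and the build mm10 are named in the submitters' processing notes, without versions. Read counter, strand setting and annotation: not given in the sources used here. Each deposited value is a signal that the authors obtained when gene counts were brought to a common depth. The values are not whole and share no step over most genes, so reads could not be recovered, no count test was run, and no counting interval is given.

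Log2(scaled count + 1) of the 11110 genes with a mean of at least 10 was compared between the groups (n = 4 and n = 6) with limma 3.58.1 in R 4.3.3 (variance trend, group as the only term, 13.1 degrees of freedom, two-sided, Benjamini-Hochberg over all genes tested, called below 0.05). Since the values are scaled, the test planned for such values was used and not the one planned for whole counts. The script was tested on simulated data. Members, lists and alternatives were chosen with earlier results of these data known. By rule, members that passed are given by library, other members by group, and called genes of the pathway by fold change. Outside this rule, the uncalled Tat, Mccc2, Ftcd, Aass, Got1, Gpt2, Cdo1 and Csad are also given by library. Aldh7a1 is named beyond the number of pathway genes planned. These choices, and that of the uncalled Hal and Sds, were made later, with the values known.

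GENCODE vM21 (mm10) gave positions, and promoters from RefSeq (GRCm38.p6). No member shared 20% or more of the 50-base words in its last 400 bases with another gene. Besides Pcca and Gcdh, the uncalled Hpd, Qdpr, Bckdha, Mccc1, Acadsb and Prodh overlap a gene on the other strand at the 3′ end. Hpd also overlaps Gm26745 on the same strand there, a gene without values here. Of these neighbours Psmd9, at the end of Hpd, was higher in T cell-low (log2 fold change 1.32, adjusted p = 0.0367, limma). B3gnt8 (Bckdha), Fgfr2 (Acadsb) and Dgcr6 (Prodh) did not pass, and those of Qdpr and Mccc1 have no values. Alternatives covered scaling, pseudocount, filter, variance model, threshold, a replicate block and libraries left out. Figures used matplotlib 3.10.9 in Python 3.11.15.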

Additional observations from a re-analysis of the deposited data

Results flagged for a closer look

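In 78 sets of values (39 members in 2 groups) 5 held a library far from the others of its group by Dixon's ratio of gap to range at its 95% critical value, and chance marks about 1 in 20. T cell-low 1 had 2401 scaled counts of Hgd against 1254 to 1285 in the other T cell-low libraries, and 625 of Pccb against 357 to 392. Among T cell-high libraries, T cell-high 2 had 10728 scaled counts of Qdpr against 5791 to 7478 in the others. T cell-high 3 had 688 of Bckdhb against 614 to 637, and T cell-high 5 had 294 of Acad8 against 178 to 211.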

How the results depend on the processing

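Members that fell numbered 11 in the reported setting, from 0 to 16 with 1 library left out, and those that rose 1, from 1 to 4. All genes called numbered 1420 and ranged from 109 to 3633. Without T cell-high 1, 3, 5 and 6 the counts were 0, 0 and 0, with fold changes nearer 0 for all 12 members that passed, and without T cell-high 2 and 4 all genes called were 2628. With no filter on low values 9 members fell and 1010 genes were called, and with a filter at a mean of 50 it was 12 and 1342. Without the variance trend 4 members fell and 852 genes were called. At an adjusted p below 0.01 it was 0 lower, 0 higher and 54 genes (3830 at an unadjusted p below 0.05), at 0.10 it was 14 lower, 2 higher and 2871 genes, and with library weights 14 lower, 2 higher and 3266 genes. Rescaling to equal totals moved the median of all genes to -0.12 and the calls from 821 lower and 599 higher to 1068 lower and 420 higher, with 13 members lower. Recomputed size factors changed nothing, since they were equal for all libraries. The 12 members that passed kept their sign in every setting run, which was partly fixed in advance. Settings that change only the threshold, the filter or the variance trend keep the same fold changes. The 6 members without overlap cannot change sign when libraries are left out, and the 12 were selected in these same data. With the replicate block 1 member fell (Hibadh), 1 rose (Sdsl) and 193 genes were called. The numbers were not taken to pair the libraries, since not every pair deviated together (correlations 0.104, 0.211, -0.099 and -0.151), and 2 of 8 libraries correlated best with their own number.

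Signs turned only for members that did not pass, a result with the same limit. With equal totals Fah had -0.082, Bckdha -0.097, Dbt -0.12 and Gpt -0.040. With the replicate block Dbt had -0.0061 and Prodh 0.032, and with library weights Prodh2 had 0.12. Without T cell-high 1, 3, 5 and 6 Fah had -0.15, Bckdha -0.041, Gldc 0.49, Ftcd -0.00092 and Prodh 0.13. Without T cell-high 2 and 4 Dbt had -0.032, Gpt -0.14 and Prodh2 0.041. With 1 library left out the range was -0.00680 to 0.95 for Tat, -0.038 to 0.14 for Fah, -0.22 to 0.33 for Bckdha, -0.18 to 0.17 for Dbt, -0.12 to 0.27 for Gpt and -0.25 to 0.19 for Prodh2. The cause was not tested.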
